A study of Mus musculus with 7 samples.

Results

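The Notch pathway was followed in bulk heart RNA through 10 genes: the 4 receptors Notch1, Notch2, Notch3 and Notch4, the ligands Dll4, Jag1 and Jag2, and the target genes Hey1, Hey2 and Hes1. They were taken by name from a list of the pathway, and each was found once among the 56980 mouse genes of the table. Male C57BL/6J mice, an inbred laboratory strain, were labelled wild type in both groups and were 8 weeks old when obtained. In 3 mice the left coronary artery was ligated (MI mice, for myocardial infarction), and 4 mice had the same surgery without ligation (sham mice). Total RNA of myocardial tissue was taken 4 days later, and each mouse gave 1 library. The study calls the tissue of the MI mice ischemic, and the sources used here do not say how it was divided into scar and border.

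Notch signalling passes between neighbouring cells. A ligand of the Delta or Jagged family on one cell binds a receptor on the next, the receptor is cut by an ADAM protease and then by gamma-secretase, and the freed intracellular part enters the nucleus, where it joins the DNA-binding protein RBPJ and switches on repressor genes of the Hes and Hey families. In blood vessels the pathway is known for setting tip and stalk cells apart during sprouting, for arterial identity and for the coat of smooth muscle cells and pericytes. Dll4, Notch1 and Notch4 are known from endothelial cells and Notch3 from the coat cells, while Notch2, Jag1 and Hes1 are used by many cell types. In tissue of mixed cells, fewer cells of a type and less RNA per cell cannot be told apart.

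Values are FPKM, the fragments counted on a gene relative to its length and to the depth of the library. Levels of different genes depend on the gene lengths used, which for these genes were longer than the exon bases of GENCODE M21. Depths were 19977713 to 23473543 fragments in the sham mice and 21781014 to 23610870 in the MI mice. One MI library stood apart from the other MI libraries. Over the 11431 genes tested, Pearson's r with the sham mice was 0.984 to 0.987 for MI replicate 2, against 0.878 to 0.881 for MI replicate 1, 0.903 to 0.906 for MI replicate 3 and 0.989 to 0.992 between sham mice. Mitochondrial genes held 26.5% to 27.4% of the fragments in the sham mice, and 13.6%, 28.2% and 14.9% in MI replicates 1, 2 and 3. Results are therefore given with all 7 mice and without MI replicate 2, which leaves 2 MI mice. That mouse was picked from these same data for its likeness to the sham mice, so its removal favours wider differences. P-values without it are therefore descriptive and are no separate evidence of a change. Cardiomyocyte markers were abundant in every mouse, with Actc1, the cardiac actin, at 5069 to 7013 FPKM, and 8 of 8 listed markers were above 0 in all 7 mice.

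Genes that reached 1 FPKM in 3 or more mice entered a limma test on log2(FPKM + 1), with p-values adjusted by the Benjamini-Hochberg method over all 11431 genes, and 9 of the 10 Notch genes passed this filter. Hey2 stayed under it and was not tested. At an adjusted p of 0.05, 0.0262% of all genes were called (Igkj3, Krt14 and Tfrc) and 0 of the 9 Notch genes. At an unadjusted p of 0.05, 3 of the 9 were higher in the MI mice, Notch2, Jag1 and Hes1, and 0 were lower, where 29.5% of all genes were higher and 9.85% lower. In every MI mouse Notch2 and Notch4 stood above every sham mouse, 2 of the 9 where 16.1% of all genes did so, and 0 stood below, where 9.00% did. Without MI replicate 2, 4 of the 9 were higher at an adjusted p of 0.05 (Notch2, Notch3, Jag1 and Hes1) and 0 were lower, where 57.0% of all genes were higher and 14.7% lower. The counts higher in MI were thus near the share over all genes. On the log2(FPKM + 1) scale the median gene tested was itself 0.21 higher in MI, and the median of the 9 Notch genes was 0.19.

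**Figure D1:**
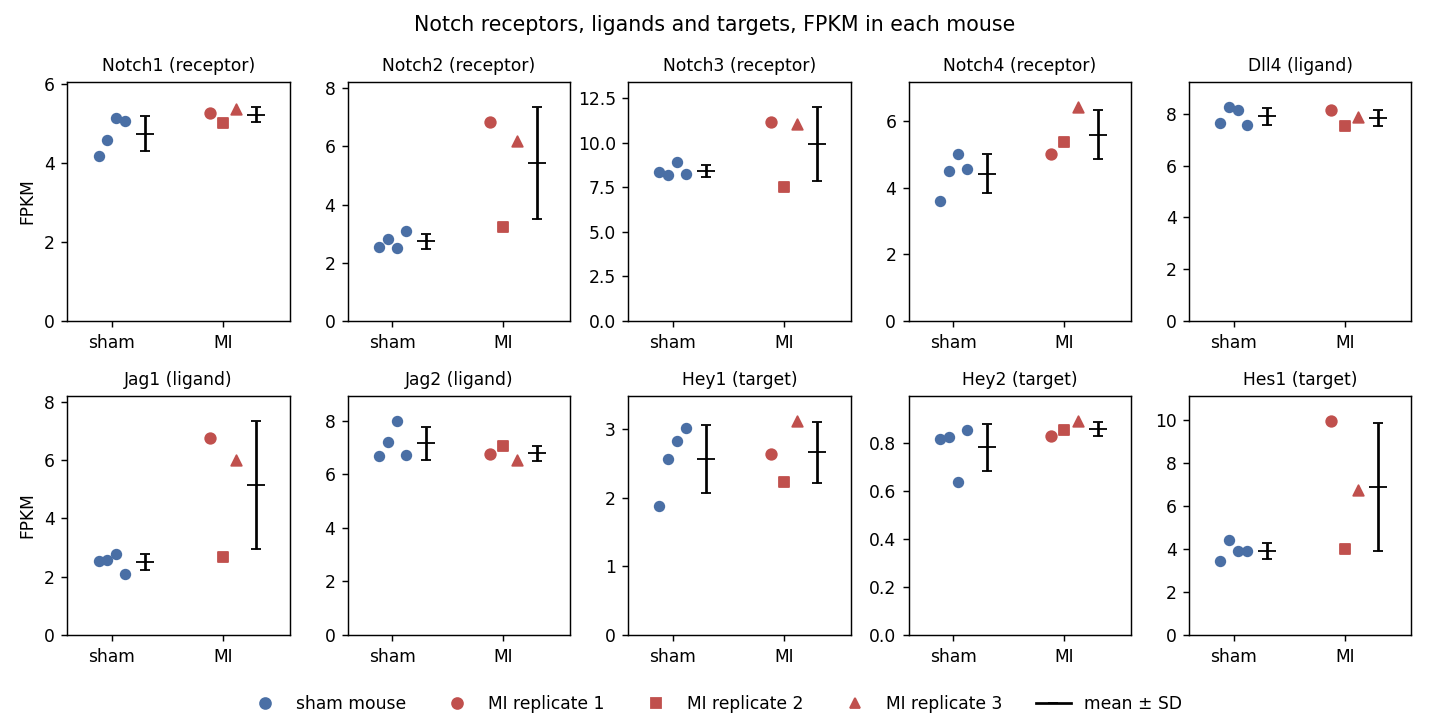
FPKM of the 10 Notch genes in each mouse, with the mean and SD of each group as black bars (4 sham mice in blue, 3 MI mice in red, and a separate symbol for each MI replicate). Notch2, Jag1 and Hes1 were high in MI replicates 1 and 3 and near the sham mice in MI replicate 2, while Dll4, Jag2 and Hey1 overlapped between the groups.

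Notch acts on its target genes through RBPJ, which is known to bind the letters GTGGGAA, and the promoters of 3 members are shown for these letters: Hey2, as a target gene, and Notch2 and Jag1, as the receptor and the ligand with the widest differences between the groups. The motif was searched on both strands, where the other reads TTCCCAC, in RefSeq windows of 300 bases, from 250 before to 50 after the gene start (GRCm38.p6). Windows were given for 8 of the 10 genes, without Hey1 and Hes1. Of these 8, only that of Hey2 held the motif, against 6.38% of all 32851 windows. It held the motif on both strands, the first base 207 and 4 bases before the RefSeq start, as did 0.1005% of the windows. The parts upstream of the gene start in both RefSeq and GENCODE follow, 5′ to 3′ on the strand of the gene, with the motif in capitals, and so does the site nearer the start of Hey2.
Hey2, chr10:30842802-30843033, minus strand: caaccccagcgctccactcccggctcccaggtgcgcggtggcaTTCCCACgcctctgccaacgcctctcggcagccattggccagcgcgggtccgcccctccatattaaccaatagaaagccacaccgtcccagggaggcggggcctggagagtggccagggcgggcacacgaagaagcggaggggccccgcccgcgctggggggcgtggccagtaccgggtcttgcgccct
Hey2, nearer site, chr10:30842771-30842797, minus strand: gggctgcagcGTGGGAAagaacctcca
Jag1, chr2:137116645-137116770, minus strand: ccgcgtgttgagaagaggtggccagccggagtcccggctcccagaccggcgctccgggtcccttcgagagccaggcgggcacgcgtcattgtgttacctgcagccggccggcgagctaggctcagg
Notch2, chr3:98013288-98013526, plus strand: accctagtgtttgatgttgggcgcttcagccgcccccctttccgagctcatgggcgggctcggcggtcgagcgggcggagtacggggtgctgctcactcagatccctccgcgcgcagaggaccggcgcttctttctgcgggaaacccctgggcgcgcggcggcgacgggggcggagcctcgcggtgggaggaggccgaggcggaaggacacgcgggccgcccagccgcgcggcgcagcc
The part shown has 71.1% G and C for Hey2, 70.6% for Jag1 and 74.1% for Notch2. A match of letters is a description, and sites farther from the start are outside these windows.

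Among the receptors, Notch2 had the widest difference between the groups. Notch2 (ENSMUSG00000027878) is a receptor with broad tissue use, at chr3:98013527-98150361 on the plus strand (GRCm38, with GENCODE M21, as for the genes that follow). Its FPKM was 2.53, 2.81, 2.52 and 3.09 in sham replicates 1 to 4, and 6.85, 3.24 and 6.18 in MI replicates 1 to 3. Every MI mouse was above every sham mouse, but MI replicate 2 only by a little: the MI values were 2.50, 1.18 and 2.25 times the sham mean of 2.74 ± 0.267 (SD, n = 4). The difference was 0.73 on the log2(FPKM + 1) scale (SE 0.21, 95% interval 0.24 to 1.23), 0.52 above that of the median gene, with an adjusted p of 0.108 by limma. The exact two-sided permutation p was 0.0571, the smallest that 3 mice against 4 allow. Without MI replicate 2 the log2 difference was 1.01 and the adjusted p, by limma with the Benjamini-Hochberg method, was 5.95e-05. Between 637 and 691 fragments per sham mouse and 823 to 1673 per MI mouse lay behind these values. Gm42820, on the same strand, shares 541 exon bases with Notch2 and reached at most 0.180 FPKM in any mouse.

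Notch4 was also highest in the MI mice, by less. Notch4 (ENSMUSG00000015468) is a receptor largely of endothelial cells, at chr17:34564268-34588503 on the plus strand. It stood at 3.61, 4.51, 4.99 and 4.55 FPKM in the sham mice and at 5.01, 5.36 and 6.41 in the MI mice. The groups did not overlap, although the highest sham mouse and MI replicate 1 differed by less than the sham SD of 0.582. The log2 difference was 0.28 (SE 0.13, interval -0.01 to 0.58, adjusted p of 0.132 by limma), 0.08 above the median gene, and the exact permutation p was again 0.0571. It was smaller after median log-ratio scaling, at 0.11 (adjusted p of 0.539 by limma), and near 0 after quantile normalization, at 0.0086 (adjusted p of 0.970 by limma). With MI replicate 2 left out the log2 difference was 0.31 with an adjusted p of 0.0626. Unlike that of Notch2 and Jag1, its value in MI replicate 2 lay between the other MI mice.

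Notch3 followed the split among the MI mice. Notch3 (ENSMUSG00000038146) is the receptor of smooth muscle cells and pericytes, at chr17:32120820-32166852 on the minus strand. It was the receptor with the highest level, at 8.34, 8.19, 8.90 and 8.25 FPKM in the sham mice and 11.2, 7.52 and 11.03 in the MI mice. MI replicates 1 and 3 were above all sham mice and MI replicate 2 below all of them. With all mice the log2 difference was 0.19 (SE 0.14, interval -0.14 to 0.52, adjusted p of 0.302 by limma), and without MI replicate 2 it was 0.36 with an adjusted p of 0.00113. Relative to the median gene of the same fit these differences were only -0.02 and 0.04. The antisense gene Gm17276 shares 488 exon bases with Notch3, and since the sources used here do not say whether counting used the strand, reads of the 2 genes cannot be told apart there. Gm17276 reached at most 0.682 FPKM in any mouse.

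With all mice and the values not rescaled, Notch1 differed least among the receptors. This order depended on the scaling, and after median log-ratio scaling Notch3 differed less, at 0.0026. Notch1 (ENSMUSG00000026923) is the receptor best known from endothelial sprouting, at chr2:26457903-26516663 on the minus strand. Its FPKM was 4.19, 4.58, 5.13 and 5.07 in the sham mice and 5.28, 5.00 and 5.37 in the MI mice. The MI mice sat at the upper end of the sham range, with MI replicate 2 inside it. The log2 difference of 0.12 (SE 0.095, interval -0.11 to 0.34, adjusted p of 0.350 by limma) was -0.09 relative to the median gene, and it turned negative under 2 of the scalings tried, scaling by the median log-ratio (-0.06) and quantile normalization (-0.16). Notch3 turned under quantile normalization too (-0.06). On the opposite strand, 0610009E02Rik shares 1068 exon bases and Gm13568 shares 414 with Notch1, and neither passed 0.257 FPKM in any mouse.

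Among the ligands, Jag1 stood out and the other 2 did not. Jag1 (ENSMUSG00000027276) is the Jagged ligand made by endothelial, smooth muscle and other cells, at chr2:137081456-137116644 on the minus strand. It measured 2.53, 2.58, 2.77 and 2.11 FPKM in the sham mice and 6.77, 2.66 and 6.01 in the MI mice. MI replicates 1 and 3 stood at 2.71 and 2.41 times the sham mean, whereas MI replicate 2, at 1.07 times, was inside the sham range, so the groups overlapped. The log2 difference was 0.75 (SE 0.25, interval 0.15 to 1.34), 0.54 above the median gene, with an adjusted p of 0.108 by limma and an exact permutation p of 0.114. It was 1.08 without MI replicate 2, and the adjusted p by limma was 6.72e-05. The values rested on 287 to 443 fragments per sham mouse and 411 to 1005 per MI mouse.

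Dll4 (ENSMUSG00000027314) is the Delta ligand of endothelial tip and arterial cells, at chr2:119325784-119335962 on the plus strand. Its FPKM was 7.65, 8.25, 8.13 and 7.56 in the sham mice and 8.13, 7.52 and 7.87 in the MI mice. The groups overlapped almost fully, and the log2 difference of -0.01 had an interval of -0.20 to 0.19 (adjusted p of 0.936 by limma). Gm14207, on the opposite strand, shares 214 exon bases with it and reached at most 0.259 FPKM. Jag2 (ENSMUSG00000002799) is the second Jagged ligand, at chr12:112907819-112929776 on the minus strand. It stood at 6.69, 7.21, 7.99 and 6.73 FPKM in the sham mice and at 6.76, 7.06 and 6.52 in the MI mice. Only MI replicate 3 was outside the sham range, and the log2 difference of -0.07 had an interval of -0.28 to 0.15 (adjusted p of 0.589 by limma). Both values depended on the scaling. After rescaling to TPM the log2 difference was 0.18 for Dll4 and 0.12 for Jag2, under a median gene of 0.41. It was -0.19 and -0.25 after median log-ratio scaling and -0.28 and -0.33 after quantile normalization, with a median gene of 0.05 and -0.03.

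Of the target genes, Hes1 separated the MI mice as Jag1 did. Hes1 (ENSMUSG00000022528) is a transcriptional repressor induced by Notch in many tissues, at chr16:30064384-30067796 on the plus strand. It stood at 3.45, 4.40, 3.89 and 3.89 FPKM in the sham mice and at 9.93, 3.98 and 6.73 in the MI mice. MI replicate 1 was the highest at 2.54 times the sham mean, MI replicate 3 followed at 1.72 times, and MI replicate 2 lay inside the sham range. The log2 difference was 0.61 (SE 0.24, interval 0.04 to 1.19), 0.41 above the median gene, with an adjusted p of 0.116 by limma and an exact permutation p of 0.114. It was 0.91 without MI replicate 2, with an adjusted p of 0.00112. The values came from 222 to 274 fragments per sham mouse and 259 to 621 per MI mouse.

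Hey1 (ENSMUSG00000040289) is a vascular Notch target, at chr3:8663359-8667256 on the minus strand. Its FPKM was 1.87, 2.56, 2.82 and 3.01 in the sham mice and 2.64, 2.23 and 3.11 in the MI mice. The values rested on 197 to 311 and 237 to 345 fragments. The sham mice alone spanned nearly all of the MI values, and the log2 difference of 0.04 (interval -0.30 to 0.38, adjusted p of 0.827 by limma) was negative after median log-ratio scaling (-0.11), quantile normalization (-0.22) and removal of mitochondrial genes (-0.05). Hey2 (ENSMUSG00000019789) is its arterial relative, at chr10:30832359-30842801 on the minus strand, and had the lowest level of the 10 genes. It stood at 0.816, 0.824, 0.636 and 0.853 FPKM in the sham mice and at 0.830, 0.854 and 0.891 in the MI mice, from 71 to 87 and 86 to 100 fragments. MI replicate 1 lay inside the sham range and the other MI mice just above it, and when all genes were tested without a filter the log2 difference was 0.06 with an unadjusted p of 0.512 by limma. Its promoter window is the one printed with the RBPJ letters on both strands.

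**Figure D2:**
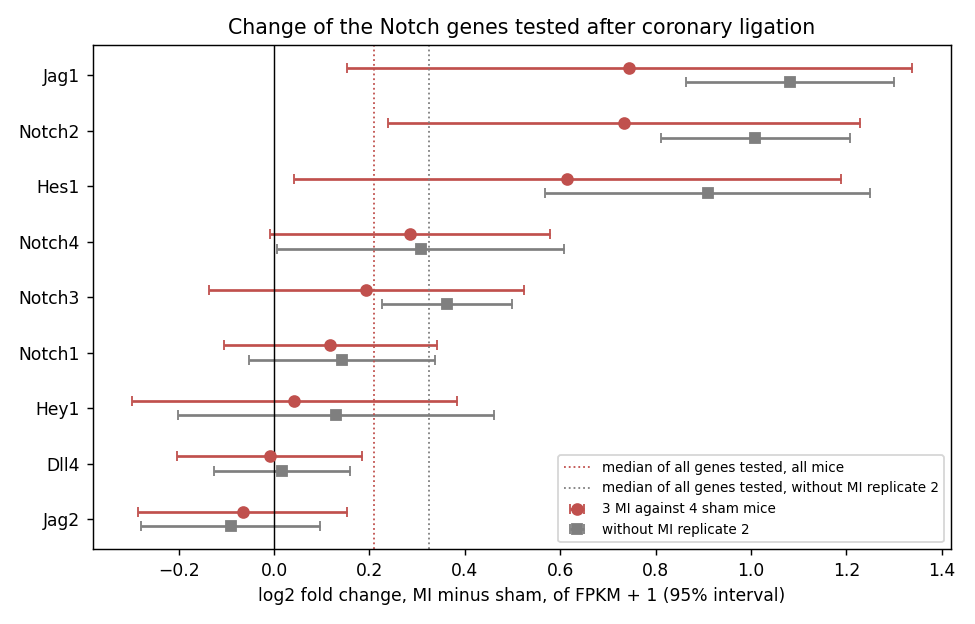
Log2 difference of FPKM + 1, MI minus sham, of the 9 Notch genes tested, with 95% intervals, for all 7 mice (red circles) and without MI replicate 2 (grey squares), and the median gene of each fit as a dotted line (0.21 and 0.33). The intervals of Jag1, Notch2 and Hes1 lay above 0 in both fits, and those of Dll4, Jag2, Hey1 and Notch1 spanned 0 in both.

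Ordered by the mean FPKM of the sham mice, the genes ran Notch3, Dll4, Jag2, Notch1, Notch4, Hes1, Notch2, Hey1, Jag1 and Hey2. Neighbours in this order had separate ranges at 3 steps only: from Jag2 to Notch1, from Hes1 to Notch2 and from Jag1 to Hey2. In the MI mice the order was Notch3, Dll4, Hes1, Jag2, Notch4, Notch2, Notch1, Jag1, Hey1 and Hey2, and the ranges were separate only from Jag2 to Notch4 and from Hey1 to Hey2. The order depended on the gene lengths. With the exon lengths of GENCODE M21 in their place, an alternative chosen after seeing the data, the sham means would be led by Jag2 at 9.46, Notch3 at 9.18 and Dll4 at 8.03, and the MI means by Notch3 at 10.8, Hes1 at 9.70, Jag2 at 8.97 and Notch4 at 8.46, ahead of Dll4 at 7.97. Hey2 came last in both groups with either set of lengths.

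A share within a mouse does not move with the scaling of its library, so the makeup of the receptor and ligand pools was compared next. Notch2 made up 13.6%, 14.0%, 11.7% and 14.7% of the summed receptor FPKM in the sham mice and 24.2%, 15.4% and 21.3% in the MI mice. All MI mice were above all sham mice, a difference of 6.79 percentage points (exact two-sided permutation p of 0.0571, and 0.229 adjusted over the 4 receptors). Notch1 held 23.3% ± 0.825 (SD, n = 4) in the sham mice and 18.6%, 23.7% and 18.5% in the MI mice (exact p of 0.171), and Notch3 held 41.5% ± 2.25 against 39.5%, 35.6% and 38.1% (exact p of 0.114). Notch4 showed no common direction, with 21.7% ± 1.67 (SD, n = 4) in the sham mice and 17.7%, 25.4% and 22.1% in the MI mice. The summed receptor FPKM was 18.7 to 21.6 in the sham mice and 28.3, 21.1 and 29.0 in the MI mice.

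Jag1 made up 15.0%, 14.3%, 14.7% and 12.9% of the summed FPKM of the 3 ligands in the sham mice and 31.3%, 15.4% and 29.5% in the MI mice. The MI mice were again all above the sham mice, by 11.2 percentage points on average, with MI replicate 2 just past the highest of them (exact permutation p of 0.0571, and 0.171 adjusted over the 3 ligands). The shares of Dll4 and Jag2 were lower in MI replicates 1 and 3 than in any sham mouse: Dll4 held 37.5% and 38.6% there against 45.1% ± 1.37 (SD, n = 4), and Jag2 31.2% and 31.98% against 40.7% ± 1.18. In MI replicate 2 they held 43.6% and 41.0%, inside the sham ranges, and the exact permutation p was 0.114 for Dll4 and 0.171 for Jag2. The 3 shares sum to 100% in each mouse, so these lower shares are not separate from the higher share of Jag1. The summed ligand FPKM was 16.4 to 18.9 in the sham mice and 21.7, 17.2 and 20.4 in the MI mice.

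**Figure D3:**
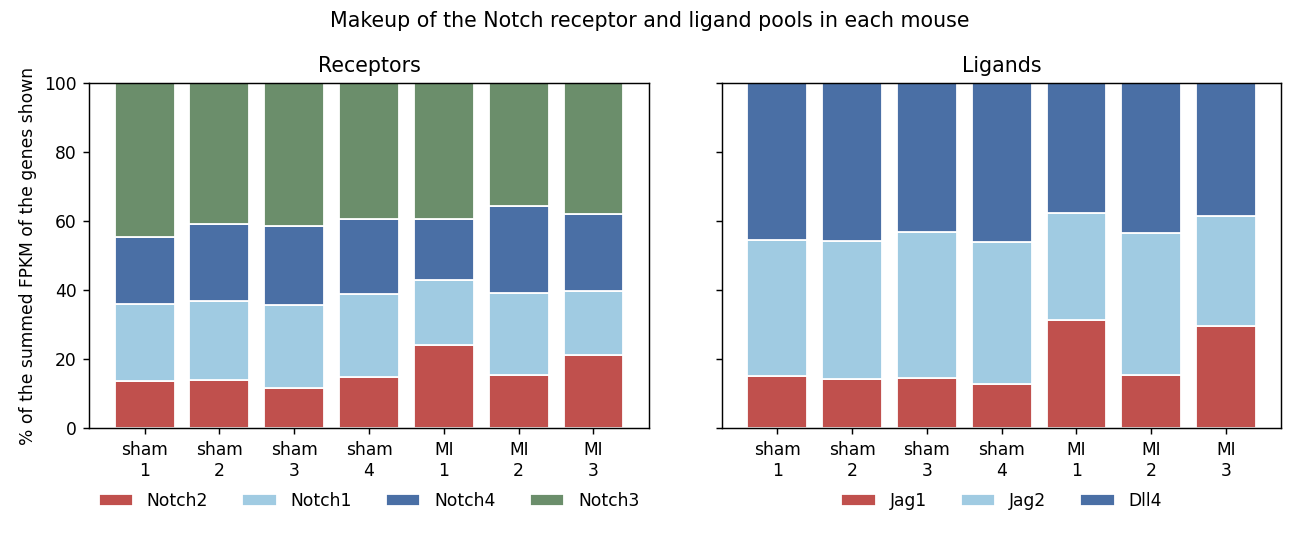
Share of each gene in the summed FPKM of the 4 receptors (left) and the 3 ligands (right), as stacked bars to 100% for each mouse. Notch2 held 11.7% to 14.7% of the receptors and Jag1 12.9% to 15.0% of the ligands in the sham mice, and both held more in MI replicates 1 and 3.

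Marker genes of the cell types in the heart stood apart in the same MI mice. The summed FPKM of 8 fibroblast markers was 122 to 145 in the sham mice and 2492, 232 and 1923 in MI replicates 1, 2 and 3, and 8 of 8 were higher at an unadjusted limma p of 0.05, with Col3a1, Col1a1 and Dcn the most abundant. For 8 macrophage markers, led by Lyz2, Csf1r and Cd68, the sums were 119 to 158 and 822, 146 and 712, and 8 of 8 were higher, among them Fcgr1, which reached 1 FPKM only in the MI mice and so entered the test through the group where it is high. The 8 cardiomyocyte markers, led by Actc1, Myh6 and Atp2a2, summed to 13728 to 14826 and to 8988, 13780 and 9450, and 5 of 8 were lower. Endothelial markers differed less, at 187 to 211 in the sham mice and 238, 179 and 257 in the MI mice, with 1 of 12 higher (Egfl7) and Cdh5, Tie1 and Esam the most abundant. Kdr, the VEGF receptor of the same list, stood at 18.1 to 21.5 FPKM in the sham mice and at 17.7, 16.5 and 16.4 in the MI mice, each below every sham mouse. Mural cell markers, led by Rgs5, Acta2 and Abcc9, summed to 267 to 306 and to 363, 266 and 404, with 2 of 8 higher (Pdgfrb and Tagln) and 2 lower (Kcnj8 and Abcc9). Markers of cycling cells (Mki67, Top2a, Cdk1 and Ccnb1) summed to 2.24 to 3.29 and to 11.5, 2.59 and 9.87. No marker of these lists was at 0 in any mouse. Without MI replicate 2, at an adjusted limma p of 0.05, 8 of 8 fibroblast, 8 of 8 macrophage and 9 of 12 endothelial markers were higher and 8 of 8 cardiomyocyte markers lower. The mural markers went both ways there, with 4 of 8 higher and 2 of 8 lower. The shares over all genes were 29.5% higher and 9.85% lower at the unadjusted threshold with all mice, and 57.0% and 14.7% at the adjusted one without MI replicate 2, so the endothelial counts were below the first and not far from the second. The part of these cell types in the values of Notch2, Jag1, Hes1 and Notch3 was not tested.

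Arterial endothelial markers were counted apart because Notch is known for arterial identity. Their 6 genes summed to 14.1 to 14.8 FPKM in the sham mice and to 34.5, 14.0 and 34.5 in the MI mice. Gja4, a gap junction protein of arteries, stood at 5.33 to 6.42 FPKM in the sham mice and at 15.9, 6.29 and 14.1 in the MI mice, with a log2 difference of 0.88 (SE 0.28, adjusted p of 0.108 by limma). Unc5b, a netrin receptor, stood at 2.71 to 3.29 and at 9.97, 2.21 and 10.9, and Efnb2, an ephrin of arterial endothelium, at 2.51 to 3.50 and at 4.65, 2.77 and 4.62. MI replicates 1 and 3 were again the high ones, and 2 of the 5 tested markers, Gja4 and Gja5, were higher at an unadjusted p of 0.05, where 29.5% of all genes were. With MI replicate 2 left out, 5 of 5 were higher past the adjusted threshold, as were 57.0% of all genes. Their part in the values of the Notch genes was not tested.

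The vascular Notch genes were then set against the 12 endothelial markers of the same mouse, as the log2(FPKM + 1) of the gene minus the mean over the markers. Jag1 gave -1.97, -1.84, -1.77 and -2.04 in the sham mice and -1.08, -1.76 and -1.30 in the MI mice. All MI mice were above all sham mice, by 0.52 on average, with MI replicate 2 above them by the least (exact two-sided permutation p of 0.0571, and 0.457 adjusted over the 8 genes). Hes1 was 0.39 higher, above every sham mouse in MI replicates 1 and 3 only (exact p of 0.114). The other 6 genes differed by 0.06 for Notch4, -0.10 for Notch1, -0.16 for Hey2, -0.18 for Hey1, -0.23 for Dll4 and -0.29 for Jag2, with exact permutation p-values from 0.171 to 0.743. With MI replicate 2 left out they differed by -0.06, -0.23, -0.31, -0.24, -0.35 and -0.46 in the same order, and Jag1 and Hes1 by 0.71 and 0.54. Dll4, Jag2 and Hey2 were below every sham mouse in MI replicates 1 and 3. Hey2 lay under 1 FPKM in every mouse, where log2(FPKM + 1) moves little. Its own FPKM in MI replicates 1 and 3, at 0.830 and 0.891, was above the sham mean of 0.782. With a pseudocount of 0.1 the Hey2 difference with all mice was -0.12 (exact permutation p of 0.571). Notch3, set against the 8 mural markers, gave -1.05 to -0.87 in the sham mice and -1.01, -1.08 and -1.08 in the MI mice, a difference of -0.09 (exact permutation p of 0.114). MI replicates 2 and 3 thus lay just below every sham mouse, and MI replicate 1 inside the sham range.

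**Figure D4:**
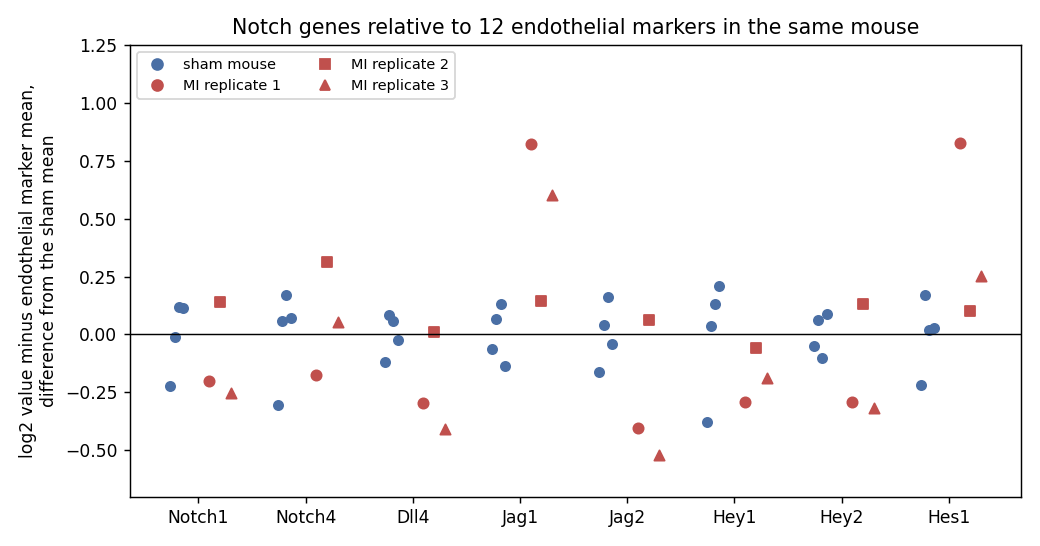
Log2(FPKM + 1) of 8 Notch genes minus the mean of 12 endothelial markers in the same mouse, drawn as the difference from the sham mean (0 line), with 1 point per mouse. Jag1 lay above every sham mouse in all 3 MI mice, while Dll4, Jag2 and Hey2 lay below every sham mouse in MI replicates 1 and 3. Hey2 stayed under 1 FPKM in every mouse.

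The wider pathway was read from a list of 52 further genes, of which 39 were tested. At an unadjusted p of 0.05, 14 were higher and 1 was lower, and 0 passed the adjusted threshold of limma, where the unadjusted shares over all genes were 29.5% higher and 9.85% lower. The median log2 difference of the 39 was 0.32, against 0.21 over all genes tested. Every MI mouse was above every sham mouse for 7 of them and below for 1, where 16.1% and 9.00% of all genes were. Without MI replicate 2, the adjusted threshold was passed by 31 genes in the higher direction and 1 in the lower, where 57.0% and 14.7% of all genes did so. Among the genes that process the receptors, the sugar transferases gave 2 of 5 higher, Lfng and Mfng, which add sugars to the receptor and so tune its choice of ligand. Lfng stood at 3.86, 3.07, 4.31 and 4.26 FPKM in the sham mice and at 15.5, 4.27 and 10.8 in the MI mice, a log2 difference of 1.06 (SE 0.36, adjusted p of 0.108 by limma). Mfng stood at 2.75 to 3.54 and at 7.20, 3.18 and 6.33. Both shared the pattern of Jag1, with MI replicate 2 inside the sham range. Among the proteases and their cofactors, Aph1b, a gamma-secretase subunit, differed by 0.0042 (adjusted p of 0.972 by limma), and Furin, which cuts the receptors as they mature, stood at 7.55 to 7.81 FPKM in the sham mice and at 9.62, 8.46 and 10.2 in the MI mice.

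Of the 9 tested genes of ligand endocytosis and receptor turnover, 3 were higher (Mib2, Dtx3 and Dtx4) and 1 was lower (Fbxw7), again beside 29.5% and 9.85% of all genes. Dtx4, a Deltex ubiquitin ligase, stood at 1.20 to 1.46 FPKM in the sham mice and at 6.12, 1.64 and 4.64 in the MI mice, above every sham mouse in each, with a log2 difference of 1.03 (SE 0.31, adjusted p of 0.108 by limma). Dtx3, its relative, stood at 8.09 to 8.36 and at 21.6, 9.01 and 15.5. Fbxw7, the ubiquitin ligase component that marks the intracellular part of Notch and several other proteins for breakdown, went the other way. Its FPKM was 5.77, 5.05, 4.65 and 5.61 in the sham mice and 2.94, 4.42 and 2.55 in the MI mice. Every MI mouse was below every sham mouse, MI replicate 2 by the least, and the log2 difference was -0.56 (SE 0.16, adjusted p of 0.108 by limma, and 0.000361 without MI replicate 2). In the nucleus, 6 of 12 tested genes of the list of complex members and repressors were higher and 0 were lower, beside the same shares of all genes. The 6 were Rbpj, the DNA-binding partner of all 4 receptors, its coactivators Maml1 and Maml2, and Snw1, Kat2a and Hdac1. Rbpj stood at 1.46 to 1.76 FPKM in the sham mice and at 3.42, 1.64 and 2.98 in the MI mice, with MI replicate 2 inside the sham range. Kat2b and Spen, 2 cofactors in the same list, had log2 differences of -0.07 and -0.02 (adjusted p of 0.507 and 0.849 by limma). Of 3 other tested target genes, Heyl, Hes6 and Nrarp, 0 passed the unadjusted threshold with all mice, and 3 were higher at the adjusted threshold without MI replicate 2, where 57.0% of all genes were. The only other ligand tested, Dll1, stood at 0.976 to 1.20 FPKM in the sham mice and at 1.75, 0.833 and 1.61 in the MI mice, with a log2 difference of 0.17 (adjusted p of 0.375 by limma) that was 0.36 without MI replicate 2 (adjusted p of 0.00421). Furin, Fcgr1, Mib2, Rbpj, Maml1, Maml2, Heyl, Hes6, Nrarp, Dll1, Egfl7, Kdr, Gja5, Pdgfrb, Tagln and Kcnj8 were named after their values were seen, to spell out these counts.

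**Figure D5:**
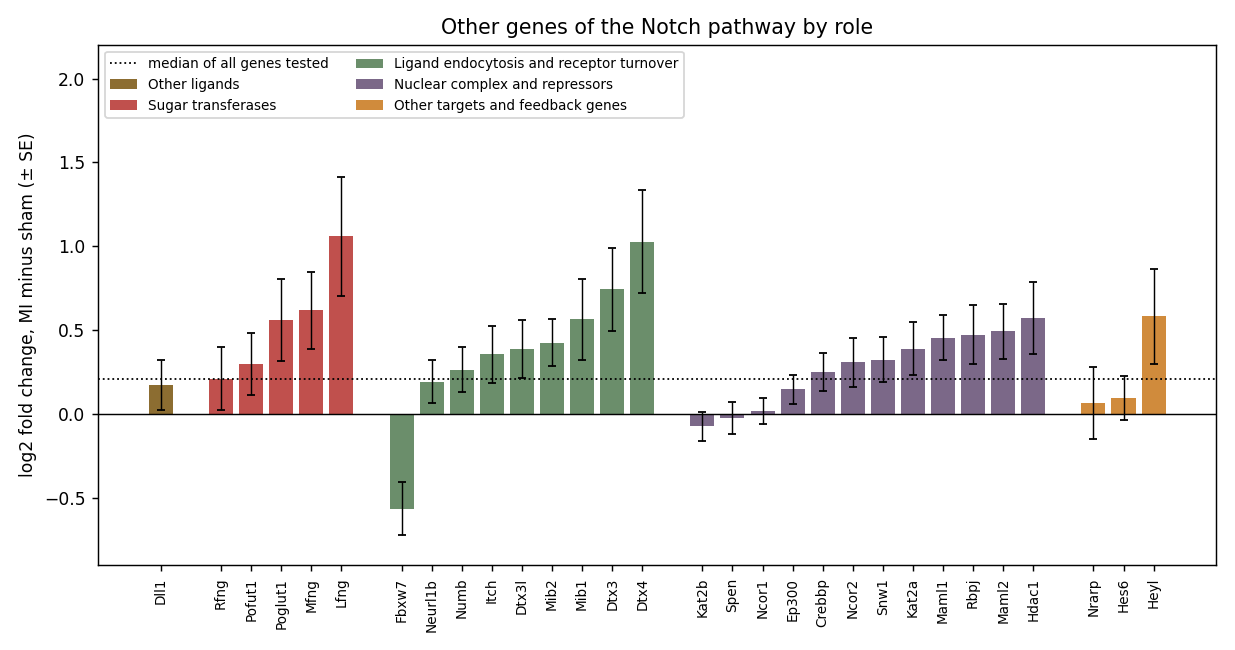
Log2 difference of FPKM + 1, MI minus sham, with its SE, for 30 of the 39 tested genes of the wider Notch pathway list, those of 5 roles without the proteases, as bars grouped and coloured by role, with the median gene as a dotted line (0.21). Lfng and Dtx4 were highest at 1.06 and 1.03, and Fbxw7 was lowest at -0.56.

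The genes whose profile over the 7 mice was most like that of a member were found by the root mean square difference of log2(FPKM + 1) after the sham mean was taken off. For Notch2 they were Gm13408 (0.027) and Grina (0.047), for Jag1 Sardh (0.038) and Pam (0.044), and for Hes1 Gm8129 (0.047) and Sorl1 (0.058). All 6 had MI replicates 1 and 3 well above and MI replicate 2 near the sham mice. For Notch3 they were Lamtor5 (0.027) and Caprin1 (0.033), and for Notch4 Cnnm3 (0.057) and Per3 (0.058). The nearest to Notch1 were Atxn1 (0.030) and Cdc42bpa (0.031), to Jag2 Ipo5 (0.023) and Usp47 (0.039), and to Hey1 Gm44243 (0.072) and Siah1b (0.084). Rpap1 (0.027) was among the nearest to Dll4. No member was among the nearest genes of another.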

How the data were processed

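Total RNA of myocardial tissue from 4 sham and 3 MI mice was analysed from 1 table. The authors deposited FPKM values, fragments relative to gene length and library depth, for 56980 Ensembl genes, and 0 columns were left unused. The submitters' processing notes name the build mm10, CASAVA 1.8, HISAT2, SAMtools 1.3.1 and edgeR, without roles. The annotation, the counting program and the use of strand are not given in the sources used here. GENCODE M21 gave symbols for 52073 genes (91.4%). The lengths behind the values were longer than the exon bases of that release for all 10 members (15828 against 14232 for Notch1, 12193 against 8061 for Notch4), which gives lower levels than the exon bases would.

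Values moved in whole steps of 1 fragment (within 0.05 of a whole number) for 30503 of the 30504 genes above 0, which gave depths and fragment numbers. Groups came from the labels. Values were not rescaled, and log2(FPKM + 1) of genes that reached 1 FPKM in 3 or more mice was tested with limma 3.58.1 (lmFit, eBayes with trend) in R 4.3.3 without covariates, MI against sham, adjusted by the Benjamini-Hochberg method, and checked on simulated data. Shares and differences from markers were tested by exact two-sided permutation over the 35 splits of the mice (SciPy 1.17.1). P-values measure the spread between mice, and fragment numbers cover counting error only. Python 3.11.15, pandas 2.3.3, NumPy 2.4.6 and matplotlib 3.10.9 did the rest.

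The members, gene lists and tests were chosen with earlier results of these data known. Named genes were all members, the 4 highest and 4 lowest of the wider pathway list by log2 difference, at most 3 of each marker list by mean FPKM, and the 2 genes most like each member, and some genes that these rules and their counts cover are not reported here. Alternatives tried were TPM, a filter on the mean or none, a pseudocount of 0.1, quantile normalization, median log-ratio scaling, mitochondrial genes left out, limma without trend or with sample weights, voom on recovered fragments, a replicate block and each mouse left out. The counts of the lists without MI replicate 2 and the levels with GENCODE lengths were added after seeing the data. The serum, patient and cell culture data of the study were not analysed here.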

Additional observations from a re-analysis of the deposited data

Results flagged for a closer look

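In sham replicate 3 Hey2 stood at 0.636 FPKM, apart from 0.816, 0.824 and 0.853 in the other sham mice. The gap to the nearest of them was 0.8292 of the range of the 4 values, only just past the critical value of Dixon's test for 4 samples. The 4 sham values of 26 quantities were tested in this way, for which chance gives about 1.3 such gaps, 1 in 20, and 1 was found.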

How the results depend on the processing

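Notch2, Jag1 and Hes1 were higher in MI under all 18 alternatives, with log2 differences of 0.46 to 1.01, 0.47 to 1.08 and 0.34 to 0.91. Each passed the adjusted threshold under 2 of them, sample weights and without MI replicate 2, and their adjusted p-values from limma reached at most 0.335, 0.335 and 0.343. Over all genes 3 were called. The count was 9 after TPM, 14 after median log-ratio scaling, 14 with mitochondrial genes left out, 21 with no filter, 6 with a pseudocount of 0.1, 15 after quantile normalization, 9952 with sample weights (nearly all weight then fell on MI replicate 3) and 0 when genes were kept by their mean (4740 then had an unadjusted p under 0.05). It ran from 0 to 8195 with 1 mouse left out, the highest without MI replicate 2. At an unadjusted p of 0.05, 3370 genes were higher and 1126 lower, against 2490 and 1950 after median log-ratio scaling and 1904 and 2400 after quantile normalization. The count of members past it, 3, was 8 with sample weights and 1 to 5 with 1 mouse left out, 1 without MI replicate 3 or sham replicate 4 and 5 without MI replicate 2. Of all 11431 genes 4496 passed it, against 9998 with sample weights, 1487 without MI replicate 3, 2737 without sham replicate 4 and 8492 without MI replicate 2. After quantile normalization 2 were higher, Notch2 and Jag1, and 1 was lower, Dll4.

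The median gene, at 0.21, moved to 0.41 after TPM, 0.05 after median log-ratio scaling and -0.03 after quantile normalization. The sign turned for Notch1 (-0.056 after median log-ratio scaling, -0.16 after quantile normalization), Notch3 (-0.064 after quantile normalization), Dll4 (0.18 after TPM), Jag2 (0.12 after TPM) and Hey1 (-0.11 after median log-ratio scaling, -0.054 with mitochondrial genes left out, -0.22 after quantile normalization). With 1 mouse left out, Dll4 ran from -0.033 to 0.017, Hey1 from -0.058 to 0.13, the receptor share of Notch4 from -1.76 to 2.08 percentage points around 0.06, and Notch4 against endothelial markers from -0.062 to 0.18. The cause was not tested. With the replicate block 0 genes were called (2332 at an unadjusted p under 0.05) and 2 members passed the unadjusted threshold. The numbers only name the mice: same-numbered mice deviated together with r of 0.07, -0.02 and -0.08. Hey2 rested on at most 100 fragments per mouse.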
